A study of Mus musculus with 8 samples.

Results

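Border-associated macrophages are the macrophages of the brain's edges, in the perivascular spaces, the meninges and the choroid plexus. They are relatives of microglia, share with them a dependence on the colony stimulating factor 1 receptor CSF1R, and are recognised by scavenger receptors and other surface proteins, many of which microglia carry at low levels. Transcripts of 10 genes used as their markers were followed here: the scavenger and endocytic receptor genes Mrc1 (the mannose receptor CD206), Stab1 (stabilin-1), Cd163 (a haemoglobin-haptoglobin receptor), Lyve1 (a hyaluronan receptor), Folr2 (folate receptor beta) and Siglec1 (a sialic acid binding lectin), the coagulation factor gene F13a1, the platelet factor 4 gene Pf4, the carbonyl reductase gene Cbr2 and the membrane protein gene Ms4a7. They were found by symbol, 10 of 53278 in the count table.

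The libraries were bulk RNA of the whole forebrain of 8 mice, all male C57BL/6J and between 10 and 20 weeks old. For 9 days 4 of them, called depleted below, ate food with PLX3397, a CSF1R inhibitor, and the other 4, the controls, ate control food. No allele, transgene or cell sort was involved, so each library mixes all cells of the dissected forebrain with whatever meninges and choroid plexus came with it. In such material fewer cells of a type and less RNA per cell cannot be told apart. Total counts ranged from 48455538 to 68406688 per mouse. Values are raw counts, or CPM (counts scaled to the depth of each library with the TMM factors of edgeR), and SDs are over 4 mice per group.

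The drug target itself followed the labels. Csf1r had 63, 19, 115 and 82 counts in depleted mice 1 to 4, against 2825, 3157, 3201 and 3190 in control mice 1 to 4 (log2 fold change -5.57, SE 0.31). All 24 genes of a microglia core list fell, with a median log2 fold change of -4.86, against a median of -0.0004 over the 20140 genes tested.

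The values of the 10 markers differed in direction and size. Over the 10 pairs of the 5 tested markers the lowest adjusted p was 0.0714 (exact permutation test), so 0 pairs passed. With 70 splits that test cannot give a p below 0.0286 before adjustment. The lack of a pair that passed is therefore not read as a lack of difference. Stab1, Mrc1 and F13a1 fell to between 18.4% and 21.8% of their pooled control level, with every depleted mouse below every control mouse. Of all tested genes 3.5% had such groups, with depleted mice lower and no overlap. Pf4 counts also lay lower in every depleted mouse but were too few for the test across all genes, so that share does not cover Pf4. Cd163 stood higher in depleted mice with overlapping groups. Lyve1, Cbr2, Folr2, Siglec1 and Ms4a7 overlapped between the groups. Siglec1 had at most 3 counts and Ms4a7 at most 8 counts in any mouse. Of the 5 markers with enough counts to test (Stab1, Mrc1, F13a1, Cd163 and Lyve1), edgeR's quasi-likelihood test called 3 lower and 0 higher at a Benjamini-Hochberg adjusted p below 0.05, where 1.11% of all tested genes were called lower and 0.0546% higher. DESeq2 (1.72% of all genes lower, 0.586% higher) and limma-voom (1.12% lower, 0.0447% higher) also called 3 markers lower and 0 higher. At an unadjusted edgeR p under 0.05 Cd163 was the 1 higher marker, where 5.38% of all tested genes were higher and 5.6% lower. Mrc1 and F13a1 passed the filter on low counts only through the control mice, where they are high, so the count of 3 among 5 is a description and is not read against the shares over all genes. The summed counts of the 10 markers were 1131 in the depleted and 3020 in the control mice.

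**Figure D1:**
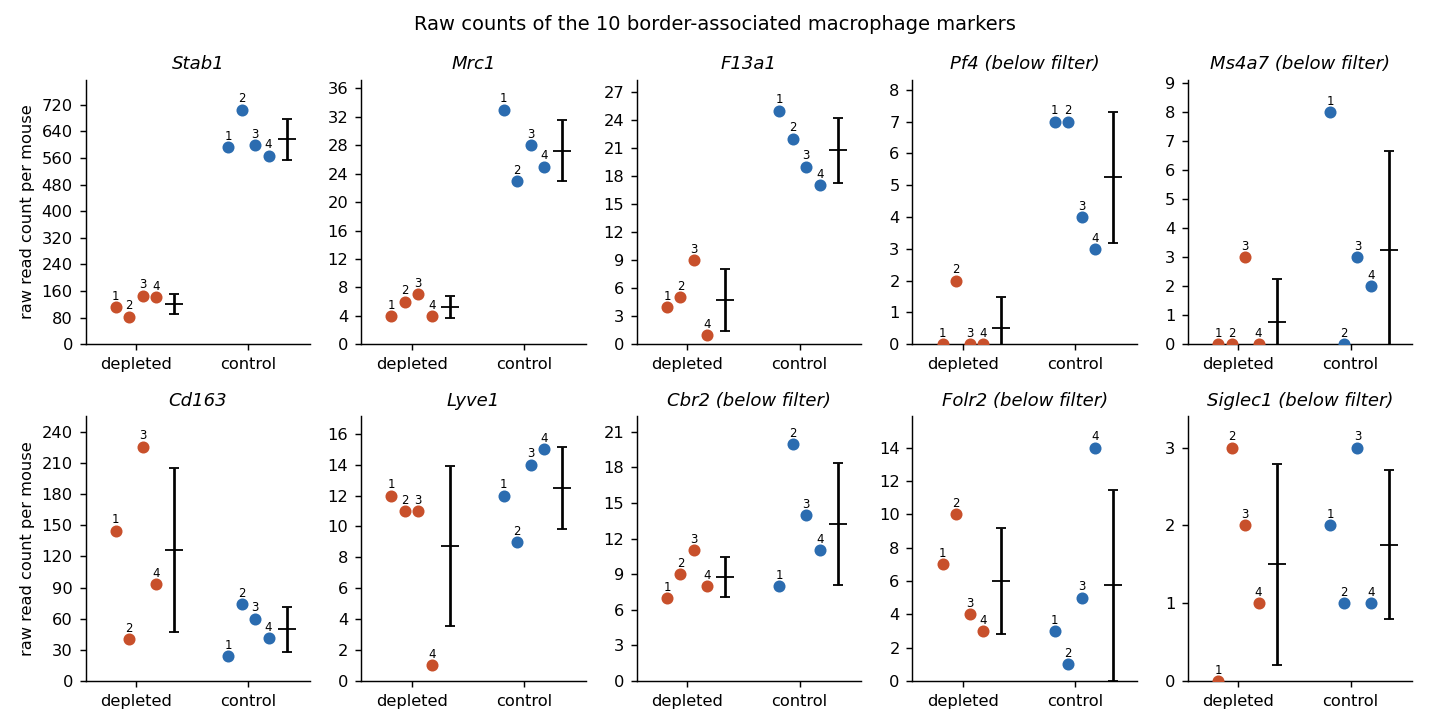
Raw read counts (y axis, 1 scale per gene, from 0) of the 10 markers in each depleted and control mouse. Each numbered point is a mouse, and the bar to the right of each group is its mean and SD (n = 4, cut at 0). The 4 depleted mice lie below the 4 control mice for Stab1, Mrc1, F13a1 and Pf4, and the groups overlap for the others. In CPM, 3.5% of all genes that passed the filter had depleted mice lower without overlap.

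Stab1 encodes a large scavenger receptor that takes up modified lipoproteins and matrix fragments. It was by far the most abundant marker in control mice. Its log2 CPM there, not scaled for exon length, was near the mean of the 24 microglia core genes (difference -0.03, SD 0.097). Stab1 has 10288 exon bases and the lengths of the core genes were not used, so this does not compare abundance per length. Which cells carried its reads cannot be read from bulk counts. It had 112, 83, 146 and 141 counts in depleted mice 1 to 4, against 592, 705, 598 and 567 counts in control mice 1 to 4. The highest depleted mouse thus stayed far below the lowest control mouse. The level was 2.18 ± 0.513 CPM in depleted and 11.7 ± 1.89 CPM in control mice (SD, n = 4 each), a log2 difference of -2.42 in edgeR (adjusted p = 5.60e-05, SE 0.18). The depleted level was 18.7% of the control level, with an exact 95% interval of 16.9% to 20.6% that covers counting error only. Of all tested genes, 0.735% had a log2 fold change of -2 or below. The gene lies on chromosome 14 (31139013 to 31168641, minus strand, mm10), and 112 of its 10288 exon bases are shared with Nt5dc2 on the opposite strand.

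Mrc1, the mannose receptor gene, fell as well. Per kilobase of exon its control level was 0.0806 CPM, against 1.14 CPM for Stab1. Its counts were 4, 6, 7 and 4 in depleted mice 1 to 4, against 33, 23, 28 and 25 in control mice 1 to 4. The groups did not overlap. The level was 0.0945 ± 0.0218 CPM in depleted and 0.513 ± 0.0637 CPM in control mice (SD, n = 4 each), and the edgeR estimate was -2.42 (adjusted p = 0.00100, SE 0.27). The depleted level was 18.4% of that in controls, and counting error alone allowed 10.9% to 29.5%. Mrc1 lies on chromosome 2 (14229392 to 14332057, plus strand, mm10), with 6371 exon bases shared with no other gene.

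F13a1 encodes the A subunit of coagulation factor XIII, which cross-links fibrin and which macrophages and monocytes make. It had 4, 5, 9 and 1 counts in depleted mice 1 to 4, against 25, 22, 19 and 17 counts in control mice 1 to 4. Each depleted mouse was again below each control mouse. The level was 0.0812 ± 0.0467 CPM in depleted and 0.393 ± 0.0725 CPM in control mice (SD, n = 4 each), and edgeR gave -2.19 on the log2 scale (adjusted p = 0.0285, SE 0.40). The call depended on single mice: the adjusted p was 0.102, 0.110 and 0.0792 without control mice 1, 2 and 3, and 0.117 without depleted mouse 1, while the log2 fold change stayed between -2.55 and -1.91 over all 8 fits that leave out 1 mouse. F13a1 lies on chromosome 13 (36867178 to 37050244, minus strand, mm10), and 74 of its 6739 exon bases are shared with Gm30489 on the opposite strand.

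Pf4, a chemokine gene of platelets and of border macrophages, was lower in the same mice, but did not have enough counts for the test across all genes. It had 0, 2, 0 and 0 counts in depleted mice 1 to 4, against 7, 7, 4 and 3 counts in control mice 1 to 4. The groups did not overlap (p = 0.0286 in an exact two-sided permutation test of CPM, the smallest that 70 splits can give, and 0.0571 without any 1 of the depleted mice). The pooled depleted level was 9.08% of the control level, with an exact 95% counting interval of 1.03% to 37.1%. With no filter on low counts edgeR put it at -3.16 (adjusted p = 0.248, SE 0.97). Groups that did not overlap, with depleted mice lower, were found for 3.5% of all tested genes, a share over genes that passed the filter, which Pf4 did not. Ms4a7 had 0, 0, 3 and 0 counts in depleted mice and 8, 0, 3 and 2 counts in control mice. Its control counts came mostly from mouse 1, and the groups overlapped (exact permutation p = 0.257). The pooled depleted level of Ms4a7 was 22.0% of the control level, with an exact 95% counting interval of 4.02% to 80.0%.

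The promoter windows of the 3 genes called lower and of Cd163, which was not, are shown as the ends of the range of fold changes. They were taken from RefSeq (GRCm38.p6, the mm10 assembly) from 250 bases before to 50 after the start, which was available for 8 of the 10 markers. Capitals mark matches on either strand to AGGAAGT, a core bound by PU.1 and other ETS factors of myeloid cells, or to TGCTGA, a short site of MAF factors. These are the outermost windows of Stab1 (chr14:31168592-31168891, minus strand), Mrc1 (chr2:14229164-14229463, plus strand), F13a1 (chr13:37050195-37050494, minus strand) and Cd163 (chr6:124304401-124304700, plus strand).
Stab1: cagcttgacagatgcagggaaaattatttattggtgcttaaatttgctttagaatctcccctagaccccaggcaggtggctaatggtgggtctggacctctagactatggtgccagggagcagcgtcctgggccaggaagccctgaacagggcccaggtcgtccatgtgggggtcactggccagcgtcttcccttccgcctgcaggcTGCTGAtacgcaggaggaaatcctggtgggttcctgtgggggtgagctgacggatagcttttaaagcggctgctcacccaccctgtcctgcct
Mrc1: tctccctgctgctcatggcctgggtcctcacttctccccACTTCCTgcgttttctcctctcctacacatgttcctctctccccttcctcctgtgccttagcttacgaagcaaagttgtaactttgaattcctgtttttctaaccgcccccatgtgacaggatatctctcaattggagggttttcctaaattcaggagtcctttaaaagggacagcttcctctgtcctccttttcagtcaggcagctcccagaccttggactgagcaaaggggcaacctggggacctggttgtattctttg
F13a1: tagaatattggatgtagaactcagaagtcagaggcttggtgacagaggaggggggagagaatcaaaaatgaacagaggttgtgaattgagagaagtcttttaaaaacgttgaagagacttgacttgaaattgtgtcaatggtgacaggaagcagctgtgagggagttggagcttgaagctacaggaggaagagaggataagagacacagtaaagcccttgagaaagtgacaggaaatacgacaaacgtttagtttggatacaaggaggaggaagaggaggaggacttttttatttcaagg
Cd163: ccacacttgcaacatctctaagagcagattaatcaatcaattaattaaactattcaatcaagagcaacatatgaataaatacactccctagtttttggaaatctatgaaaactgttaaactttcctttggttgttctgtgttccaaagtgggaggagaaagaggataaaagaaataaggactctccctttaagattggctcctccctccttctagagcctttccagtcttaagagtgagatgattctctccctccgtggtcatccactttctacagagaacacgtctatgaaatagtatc
The Stab1 window held 1 MAF site, the Mrc1 window held 1 ETS core on the opposite strand, and the F13a1 and Cd163 windows shown held neither. The second F13a1 start (37049164 to 37049463) held 2 ETS cores, the Pf4 window held 1, and 1 Folr2 window held 2. The Cbr2 window and both Folr2 windows held 1 MAF site each, and those of Ms4a7 held neither motif. Of 32851 windows of this length, 9.35% held the ETS core and 19.5% the MAF site. A match describes letters and is not a bound site.

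Cd163 is often read as the marker that sets border macrophages apart from microglia, and it did not fall. It had 145, 40, 226 and 93 counts in depleted mice 1 to 4, against 24, 74, 60 and 41 in the controls. Depleted mice 1, 3 and 4 were above all control mice, and depleted mouse 2 lay among them. The level was 2.15 ± 1.05 CPM in depleted and 0.956 ± 0.466 CPM in control mice (SD, n = 4 each), and the edgeR estimate of 1.18 did not pass (adjusted p = 0.380, SE 0.45). Without depleted mouse 2 it was 1.46 (adjusted p = 0.0732), and without depleted mouse 3 it was 0.91 (adjusted p = 0.784). Cd163 lies on chromosome 6 (124304656 to 124330527, plus strand, mm10), and its exons overlap no other gene.

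The Cd163 level of a mouse ranked with the level of striatal transcripts in its library. The 5 genes whose log2 CPM over the 8 mice was most like that of Cd163, among 17315 compared, were Gng7, Adcy5, Gnal, Meis2 and Dclk3 (Pearson's r from 0.994 to 0.996), and none of them passed the test between groups (adjusted p from 0.310 to 0.400 in edgeR). A list of 10 striatal projection neuron genes that holds none of those 5, among them Drd1, Adora2a and Penk, was added after this was seen. Its mean log2 CPM was 7.88, 6.18, 8.16 and 7.80 in depleted mice 1 to 4, against 4.78, 7.16, 6.53 and 5.78 in control mice 1 to 4. Its 10 genes had a median log2 fold change of 1.41 and 0 passed the test (9 at an unadjusted p under 0.05). Sorted by Cd163 or by the striatal list, the 8 mice came in the same order, within both groups and across them. Spearman's rho was 1.00 and Pearson's r was 0.986 over the 8 mice. The list was chosen after the genes most like Cd163 were known, so these values are a description with no test. Without control mouse 1 and depleted mouse 3, which lay farthest from the median, r was 0.979. With the striatal list as a covariate the log2 fold change of Cd163 was -0.05 (SE 0.23, edgeR). A list chosen for its likeness to Cd163 takes up the Cd163 difference in such a fit, so this value is a description too.

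Because the groups formed separate clusters for Stab1, Mrc1 and F13a1, no correlation with the striatal list is given for them. With the striatal covariate Stab1 stood at -2.69 (adjusted p = 1.45e-04) and Mrc1 at -2.19 (adjusted p = 0.0218), and F13a1 at -2.15 lost its call (adjusted p = 0.270, edgeR). Depleted mouse 2, whose striatal level lay among those of the control mice, had 14.4% of the mean control CPM of Stab1 and 23.8% of that of Mrc1. Why the striatal level differed between mice was not tested. Hypothalamic transcripts differed between mice within both groups. Depleted mice 2 and 3 and control mice 2 and 3 had from 1249 to 2081 counts of the hypothalamic neuropeptide gene Hcrt. The other 4 mice had from 4 to 12. Among the mice with Hcrt reads, the log2 fold changes were -2.74 for Stab1, -2.14 for Mrc1, -1.75 for F13a1 and 0.66 for Cd163. Among those without, they were -2.11 for Stab1, -2.74 for Mrc1, -2.94 for F13a1 and 1.93 for Cd163. With 2 mice per group in each, Stab1 passed in both (adjusted p = 0.0139 with and 0.0125 without Hcrt reads), but Mrc1 (0.272 and 0.0759) and F13a1 (0.596 and 0.152) did not.

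**Figure D2:**
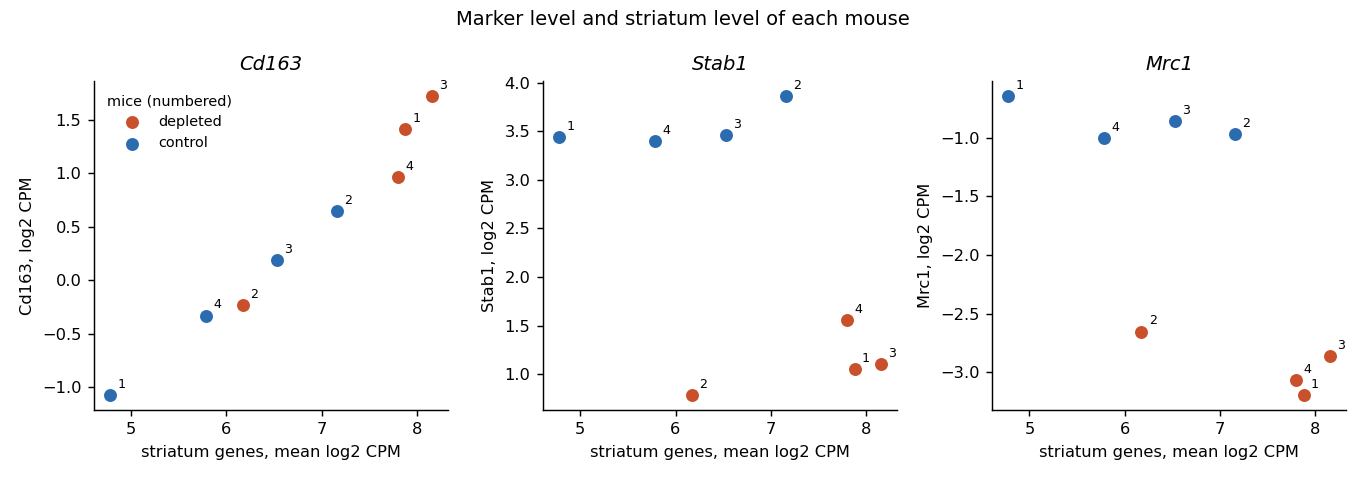
Log2 CPM of Cd163, Stab1 and Mrc1 (y axes) against the mean log2 CPM of 10 striatal genes (x axis) in each numbered mouse, coloured by group. The Cd163 points of both groups lie on 1 rising line from control mouse 1 to depleted mouse 3, whereas the depleted mice lie below the control mice for Stab1 and Mrc1.

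Lyve1, Cbr2, Folr2 and Siglec1 overlapped between the groups. Lyve1, which lymphatic endothelium also transcribes, had 12, 11, 11 and 1 counts in depleted mice 1 to 4, against 12, 9, 14 and 15 counts in control mice 1 to 4. Only depleted mouse 4 was low, and the edgeR estimate was -0.58 (adjusted p = 0.716, SE 0.47), or -0.25 without that mouse. Cbr2 had 7, 9, 11 and 8 counts in depleted mice and 8, 20, 14 and 11 counts in control mice. The pooled level was 62.9% of the control level with overlapping groups (exact permutation p = 0.114). The difference in mean CPM of -0.0964 was -0.133 without control mouse 1 (exact permutation p = 0.0286) and -0.044 without control mouse 2 (exact permutation p = 0.2). Folr2 had 7, 10, 4 and 3 counts in depleted mice and 3, 1, 5 and 14 counts in control mice, a pooled level of 99.4% of control whose counting interval reached from 53.8% to 184%. Of its 1546 exon bases, 975 are shared with Gm10602 on the opposite strand. Siglec1 had 0, 3, 2 and 1 counts in depleted mice and 2, 1, 3 and 1 counts in control mice. Its counting interval ran from 22.7% to 284% of the control level, that of Cbr2 from 39.9% to 98.3% and that of Lyve1 from 42.0% to 105%. These intervals leave out the spread between mice.

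Per length of exon, the order of the markers differed between the groups. In depleted mice Cd163 (0.395 ± 0.192 CPM per kilobase) stood first with Stab1 (0.212 ± 0.0498) after it, with overlapping ranges, and Cbr2 (0.119 ± 0.0176) lay below the range of Stab1. In control mice Stab1 (1.14 ± 0.184 CPM per kilobase, SD, n = 4) stood first, above the range of Cbr2 (0.192 ± 0.0861) and Cd163 (0.175 ± 0.0853). From Cbr2 down through Cd163, Pf4, Mrc1, Lyve1, Folr2 and F13a1, neighbours in the control order overlapped, and Ms4a7 and Siglec1 lay below F13a1. In raw counts Stab1 gave between 34.8% and 56.0% of all marker counts of a depleted mouse, against 80.0% to 82.9% in a control mouse. Cd163 gave between 23.7% and 53.9% in depleted mice, against 3.36% to 8.59% in control mice.

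The markers that fell lost less than most microglial genes. Relative to the mean log2 CPM of the 24 core genes in the same mouse, Stab1 stood at 1.70 ± 0.351 in depleted and -0.03 ± 0.097 in control mice (SD, n = 4 each), a difference of 1.73 on the log2 scale. The difference was 2.08 for Mrc1, 2.19 for F13a1, 3.44 for Lyve1 and 5.26 for Cd163, and in each the depleted mice all lay above the control mice (exact two-sided permutation test, p = 0.0286, the smallest possible, and adjusted p = 0.0286 over the 5 markers). The core list itself fell, from a mean log2 CPM of 3.57 in control to -0.58 in depleted mice. A marker that does not fall gains on such a list by construction, so for Lyve1 and Cd163 this p adds nothing. Mrc1 and F13a1 entered this test only through their control counts, so their p is a description. With a prior count of 0.5 in place of 2 the difference was 1.891 for Stab1 and 1.975 for Mrc1. That of F13a1 was then 1.98 and did not pass (exact permutation p = 0.0857). The core genes were themselves uneven: 8 of the 24 had a smaller fall than Stab1, among them Sall1, Olfml3 and Aif1. Tmem119 (0.767 ± 0.165 CPM in depleted and 15.6 ± 1.47 CPM in control mice, log2 fold change -4.35) and Siglech (-6.33) fell further.

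Differences between markers were tested in all 10 pairs of the 5 tested genes. Mrc1 minus Stab1 was 0.34 on the log2 scale (SE 0.29, exact permutation p = 0.314). It was 0.14 without depleted mouse 2, 0.20 without control mouse 2, 0.53 without depleted mouse 4 and 0.084 with a prior count of 0.5, and 0.88 among the mice with and -0.19 among those without Hcrt reads. Mrc1 minus F13a1 was -0.12 (SE 0.31, exact permutation p = 0.743). The largest differences were -3.53 for Stab1 minus Cd163 (SE 0.49), -3.18 for Mrc1 minus Cd163 (SE 0.67) and -3.06 for F13a1 minus Cd163 (SE 0.67). Each had an exact permutation p of 0.0286, as did F13a1 minus Lyve1 (-1.25, SE 0.37), and 70 splits can give none smaller. Over the 10 pairs the adjusted p was 0.0714, so 0 pairs passed and 4 had an unadjusted p under 0.05. Given that floor, this is not read as a lack of difference. Mrc1 and F13a1 entered these tests only through their control counts, so the p values of their pairs are a description. With a prior count of 0.5 Mrc1 minus Cd163 was -3.485 and F13a1 minus Cd163 was -3.48. The genes most like Stab1 over the 8 mice were Ptpn6, Tlr13, Itgam, C1qb and P2ry12 (r from 0.993 to 0.996), and those most like Mrc1 were Alox5ap, AU020206, Fgd2, Tmem173 and Tmem119 (r from 0.987 to 0.994). Most like F13a1 were Gpsm3, Ttc28, Clcn7, Card9 and 4930435N07Rik (r from 0.964 to 0.979), and most like Lyve1 were Dpf3, Tvp23a, Mvb12b, Mycbp2 and Atp8a2 (r from 0.952 to 0.979). For genes whose groups separate, such an r over both groups includes the difference between them.

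**Figure D3:**
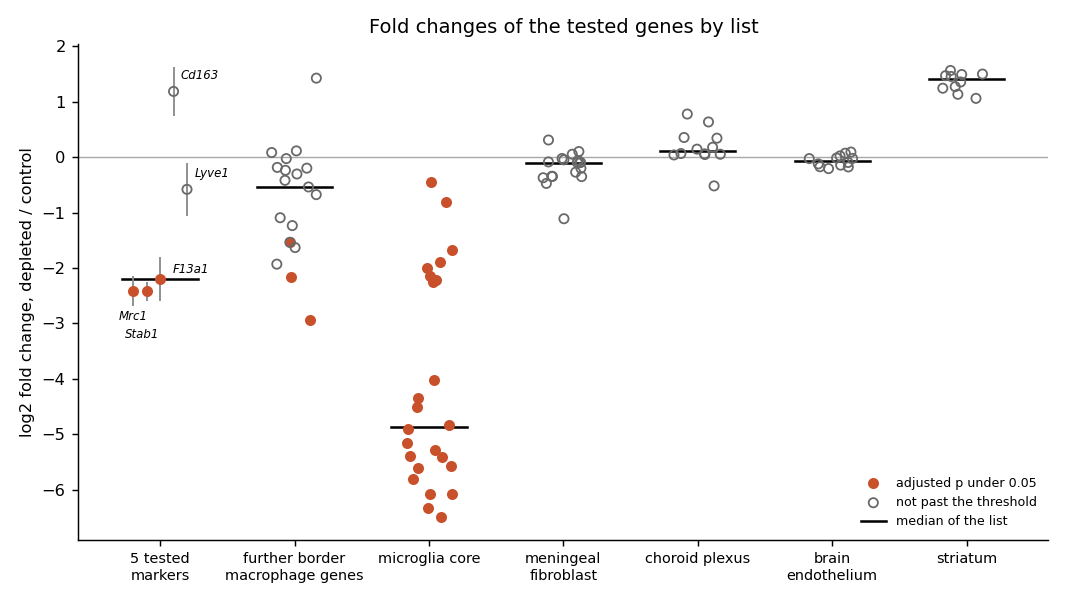
Log2 fold change, depleted over control (y axis), of each tested gene in 7 lists (x axis). Filled points passed an adjusted p of 0.05 in edgeR, open points did not, horizontal bars are list medians, and the vertical lines of the 5 tested markers are their SE. Stab1, Mrc1 and F13a1 lie near -2, between the microglia core (median -4.86) and the meningeal, choroid plexus and endothelial lists, whose medians lie near 0, while the 10 striatal genes have a median of 1.41 and none passed.

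Further genes known from border macrophages were examined as a wider list. Of 37 listed, 19 were tested, and edgeR called 3 lower and 0 higher. Of all tested genes 1.11% were called lower and 0.0546% higher. The log2 fold change was negative for 16 of the 19, with a median of -0.54. The prostaglandin-degrading enzyme gene Hpgd stood at 1.32 ± 0.403 CPM in depleted and 3.82 ± 0.184 CPM in control mice (log2 fold change -1.53, SE 0.21, adjusted p = 0.00380). The membrane protein genes Ms4a6d (-2.94, SE 0.41, adjusted p = 0.00432) and Ms4a6b (-2.16, SE 0.37, adjusted p = 0.0177), which microglia also transcribe, fell as well. They are close paralogs, and the counting could split their reads. The lectin gene Clec10a had 6, 6, 3 and 7 counts in depleted mice and 15, 20, 13 and 19 counts in control mice, and did not pass (-1.63, adjusted p = 0.112). The antigen presentation genes H2-Aa (-1.93, adjusted p = 0.103), H2-Ab1 (-1.54), Cd74 (-1.24) and H2-Eb1 (-1.09) did not pass either, nor did the macrophage transcription factor gene Maf (-0.54). Clec12a stood at 1.42 (adjusted p = 0.552), with 134, 17, 201 and 99 counts in depleted mice and 6, 55, 81 and 9 counts in control mice. Ednrb (0.08) and Hmox1 (0.11) also stood above 0 and did not pass. The 18 genes too weak to test had 91 counts in all depleted and 238 counts in all control mice, and 15 of them had the lower sum in depleted mice. The share of all weak genes with a lower sum was not computed, so this count is a description. Of the wider list, all genes but Hpgd, Ms4a6d and Ms4a6b are named after their values were seen. Lilra5 had 2 counts in depleted and 29 in control mice, Ms4a6c had 3 and 25, and Cd209f had 1 and 10. Aoah, by contrast, had 35 and 32, Marco had 7 and 5, and Ccl8 had 4 and 4.

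Transcripts of the tissues in which these macrophages live were present in both groups. Of 18 meningeal fibroblast genes edgeR called 0 (median -0.10, 1 at an unadjusted p under 0.05), and their summed level ran from 117 to 255 CPM in depleted and from 174 to 262 CPM in control mice. Dcn and Fmod were the most abundant, and Dcn stood at 19.7 ± 17.6 CPM in depleted and 42.5 ± 10.2 CPM in control mice (log2 fold change -1.11, adjusted p = 0.429). The 12 choroid plexus genes summed to between 95.5 and 793 CPM in depleted and between 379 and 555 CPM in control mice, with depleted mouse 1 lowest and depleted mouse 4 highest, and 0 were called (median 0.10). With the meningeal list as a covariate the log2 fold changes were -2.50 for Stab1, -2.26 for Mrc1 and -2.02 for F13a1, and F13a1 no longer passed (adjusted p = 0.0887). With the choroid plexus list they were -2.44 for Stab1, -2.42 for Mrc1 and -2.19 for F13a1 (adjusted p = 0.0543 for F13a1). Brain endothelium (12 genes, median -0.06) and lymphatic endothelium (6 of 8 genes tested, median -0.08) had 0 genes called, and Prox1 and Reln of the lymphatic list are also neuronal.

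Blood cells share some of these markers, as platelets hold Pf4 and monocytes F13a1. The platelet genes too weak to test (Ppbp, Gp9, Gp6, Treml1 and Clec1b) had 44 counts in the depleted and 93 in the control mice, and the 6 tested ones, of which Nrgn is mainly neuronal, had a median log2 fold change of 0.09. The 4 tested monocyte genes, led by Fn1 and Ace, had a median of -0.15. The 9 weak neutrophil genes had 117 counts in the depleted and 198 in the control mice, with Ly6g at 0 in all mice, and Mmp9 stood at -0.25. The red cell gene Hbb-bs stood at 1.51 ± 0.990 CPM in depleted and 1.48 ± 0.833 CPM in control mice. None of these lists had a gene past the threshold, and their part in the Pf4 and F13a1 values was not tested.

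**Figure D4:**
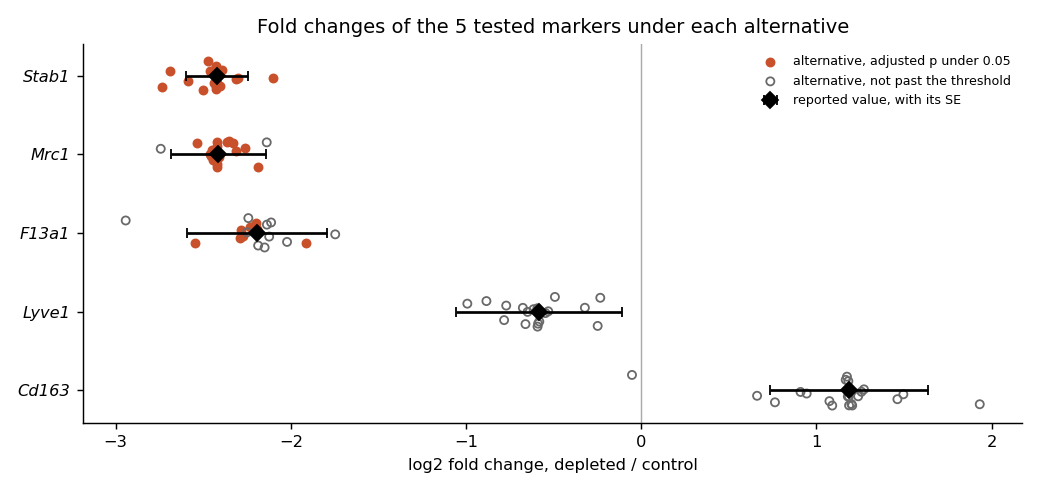
Log2 fold change, depleted over control (x axis), of the 5 tested markers in each alternative fit (points, filled where the adjusted p was under 0.05), with the reported value and its SE (diamonds). Stab1 passed in all of its 21 alternatives, Mrc1 in 18 of 20 and F13a1 in 10 of 20, while Cd163 and Lyve1 passed in 0, and the lone Cd163 point left of 0 is the fit with the striatal covariate.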

How the data were processed

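Raw counts per gene symbol were deposited by the authors as 1 table of 8 columns, each named after 1 mouse and mapped by the sample titles. STAR, FastQC, MultiQC, DESeq and DESeq2 are listed, with the mm10 build, per the submitters' processing notes. Versions, counter, annotation and strand setting were not given in the sources used here, so reads of opposite-strand partners may be included. Gene models came from GENCODE M21, which names 93.3% of the symbols.

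Genes were filtered with filterByExpr (20140 kept), scaled by TMM and tested with edgeR 4.0.16 (R 4.3.3; standard errors from the F statistic), depleted against control, with Benjamini-Hochberg adjustment over all genes. DESeq2 1.42.0 and limma 3.58.1 were alternatives, as were other scalings and filters, covariates, the replicate number as a block and leaving out each mouse. Log2 CPM used a prior count of 2, and genes most like a marker were sought at a mean of at least 0.5 CPM. Named genes followed a rule by list, adjusted p and abundance; other names are marked. The fit was also run on simulated data, whose outcome is not reported here. Markers, lists and tests were chosen with earlier results of these data known. No 2 replicates agreed within sampling noise (chi-square at least 12.3 per gene). Each sample is labelled a separate mouse, and counting intervals are exact binomial intervals. Some genes of the lists are not reported here by name.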

Additional observations from a re-analysis of the deposited data

Results flagged for a closer look

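Among 44 groups of 4 mice examined for a single mouse far from the rest (chance flags about 1 in 20), 3 values stood out by Dixon's ratio. Stab1 was highest in control mouse 2, at 14.5 CPM, with a gap to the next control mouse that made up 0.875 of the range, and the log2 fold change of Stab1 without that mouse was -2.30 (adjusted p = 2.45e-04 in edgeR). Pf4 stood at 0.0407 CPM in depleted mouse 2, from 2 counts, with 0 counts in the other depleted mice. Ms4a7 stood at 0.0433 CPM in depleted mouse 3, from 3 counts, with 0 counts in the other depleted mice.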

How the results depend on the processing

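Mrc1 kept its direction and call in 18 of 20 alternatives (log2 fold change from -2.74 to -2.14) and Stab1 in 21 of 21 (-2.74 to -2.11). F13a1 kept its direction in 20 of 20 and its call in 10 (adjusted p from 0.00178 to 0.596). Cd163 changed sign in 1 of 21, at -0.053 (SE 0.232) with the striatal covariate, which was chosen after seeing the data. That value cannot be told from 0. Of the markers, 3 were called lower, and 2 to 3 without single mice; 1 was called lower with a filter of 1 CPM in 4 samples, where 2 were tested, 1 in the mice with and 1 in the mice without Hcrt reads. Over all genes, 223 were lower and 11 higher. DESeq2 called 346 lower and 118 higher, no filter gave 25 higher, the 1 CPM filter 6, the striatal covariate 2, the mice with Hcrt reads 66 lower and 0 higher, and those without 128 higher. Leaving out 1 mouse gave 178 to 441 lower and 2 to 243 higher, with both highest values without depleted mouse 2; the cause was not tested. The same-numbered mice were not paired (correlations of -0.216, -0.172, 0.368 and -0.011 of their deviations); with the replicate number as a block 161 genes were lower and 4 higher, 2 markers were lower, and F13a1 stood at -2.25 (adjusted p = 0.121). Without single mice the difference in mean CPM ranged from -0.0162 to 0.00412 for Siglec1 and from -0.0244 to 0.0567 for Folr2, and Mrc1 minus F13a1 from -0.39 to 0.053. Counts of 20 or fewer per mouse limit Pf4, Lyve1, Cbr2, Folr2, Ms4a7 and Siglec1.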
